A study of Mus musculus with 12 samples.

Results

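Ovaries lacking Foxo3 were compared with ovaries carrying 1 functional copy, both without a transgene. The comparison takes every array labelled NoTg Foxo3-/- (3 arrays) and every array labelled NoTg Foxo3+/- (3 arrays), which makes 6 of the 12 arrays of the series. The other 6 arrays are the same pair of genotypes with the transgene (Tg). All groups are total ovarian RNA of FVB/N females at 14 dpn, and the control is heterozygous, not wild type. By the title of the series, the transgene supplies oocytes with an always active Foxo3, and the sources used here give neither its promoter nor the deleted part of Foxo3. The labels do not say whether replicates are separate animals, so the p-values rest on a spread between arrays that may be technical.

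FOXO3 is a forkhead transcription factor held in check by the PI3K and AKT pathway, which phosphorylates it and moves it out of the nucleus. In the mouse ovary it is known for keeping the oocytes of primordial follicles at rest, and mice without it activate their follicles early in life and exhaust them. FOXO factors in other cells are known to induce cell cycle inhibitors, stress resistance genes and autophagy genes. Whole ovary RNA mixes oocytes with granulosa, theca, stromal, vascular and epithelial cells, so fewer cells of a type and less RNA per cell cannot be told apart in any value given here.

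Illumina bead arrays gave 1 intensity per probe and array. A probe is called detected where its detection p-value, the share of negative control beads at least as bright, is under 0.05. Of 45281 probes, 22511 were detected on at least 3 of the 12 arrays and tested, and they represent 12173 genes. Values are log2 intensity after background correction and quantile normalization, and a difference is Foxo3-/- minus Foxo3+/-. A probe is called where limma's adjusted p (Benjamini-Hochberg over all tested probes) is under 0.05, and only such a probe or its gene is said to have risen or fallen. The arrays had 20072 to 22015 probes detected. Raw background was 79.9 to 81.2 in the null arrays and 76.3 to 79.8 in the heterozygous arrays, without overlap, and its part in the results was tested only by a fit with background as a covariate.

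Few probes passed the test, and most of those that did differed by less than 2-fold. Of the 22511 tested probes 205 were called (0.911%), 90 of them higher (0.4%) and 115 lower (0.511%) in the null. At the level of genes, each represented by its brightest tested probe, 135 of 12173 were called (1.11%), with 50 higher (0.411%) and 85 lower (0.698%). The called folds ran from 1.30 to 5.79 with a median of 1.68. Only 23 called probes passed 2-fold, 4 of them higher and 19 lower. Another 143 lay between 1.5-fold and 2-fold. Over all tested probes the median absolute difference was 0.15 on the log2 scale, the same size as the median standard error of 0.16 for a single probe. The 3 null and the 3 heterozygous values did not overlap for 4017 probes (17.8%) or 2386 genes (19.6%), and 3302 probes (14.7%) had an unadjusted p under 0.05. All 205 called probes were among those without overlap, so lack of overlap is not separate evidence for a called gene.

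Bright probes were called more often than dim ones, and among the called probes the direction changed with brightness. When the tested probes were split into 3 equal bins by mean intensity, 31 of the 7504 dimmest were called (0.413%), 8 higher and 23 lower. In the middle bin 66 of 7503 were called (0.88%), 22 higher and 44 lower. In the brightest bin 108 of 7504 were called (1.44%), 60 higher and 48 lower. Among called probes, the lower ones were thus in the majority at dim and intermediate signals and the higher ones at bright signals. Of all tested probes, called or not, 52.6% lay above 0 in the dimmest bin, 51.0% in the middle bin and 49.8% in the brightest. Of the falling probes 8 were detected on no null array, and of the rising probes 1 was detected on no heterozygous array.

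**Figure D1:**
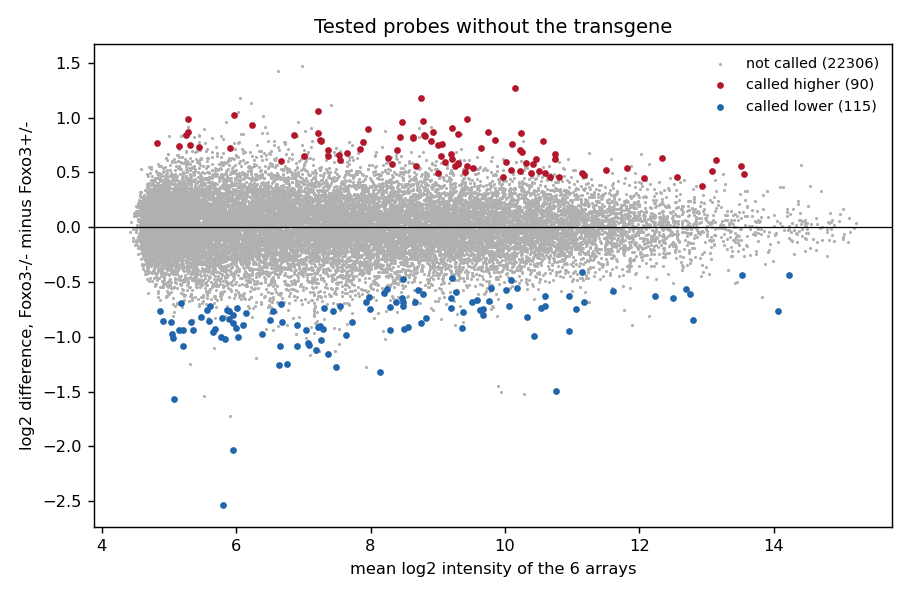
Each point is a tested probe, with the mean log2 intensity of the 6 arrays on the x axis and the log2 difference, Foxo3-/- minus Foxo3+/-, on the y axis. The 90 probes called higher (red) and the 115 called lower (blue) mostly lie within 1 log2 unit of 0, and the 2 called probes below -2 are both falls.

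The split between directions depended on the scaling. With median scaling in place of quantile normalization the median difference of all tested genes was 0.13 instead of -0.01, and 62 probes were called, 52 higher and 10 lower. With the authors' normalized values that median was 0.08, and 188 probes were called, 169 higher and 19 lower. For the main lists with a call the median is therefore also given relative to that of all genes, first with median scaling and then with the authors' values. Leaving out a single array changed the count to between 35 (without NoTg Foxo3+/- replicate 2) and 342 (without Tg Foxo3+/- replicate 1). The count also fell to 60 and 64 without NoTg Foxo3+/- replicates 1 and 3, to 81 and 89 without NoTg Foxo3-/- replicates 1 and 2, to 110 and 129 without Tg Foxo3-/- replicates 1 and 3, and to 121 without Tg Foxo3+/- replicate 2. With array background as a covariate 16 probes were called. Under that covariate the call of 155 of 164 called genes with an established name was lost, while the log2 difference of 0 of them moved by more than 1.5 times, with a median ratio of 0.99 to the original. The list medians were then 0.33 for mitosis, 0.35 for DNA replication, -0.23 for FOXO targets and -0.15 for stroma, beside 0.31, 0.29, -0.17 and -0.29 without it.

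Fold sizes of dim genes depended on the background correction. Without it 198 probes were called, 83 higher and 115 lower, but 54 of the 164 genes had a log2 difference smaller by more than 1.5 times. All 54 were among the 68 genes with a mean log2 intensity below 8, a level chosen after the values were seen, and 0 were among the 96 brighter ones. Teddm2 went from -2.03 to -0.91, Spint4 from -1.57 to -0.64, Acaa1b from 1.06 to 0.69, Casc1 from -0.93 to -0.37 and Cftr from -1.06 to -0.67. Hsd17b2 went from -1.0 to -0.42, Dtx1 from -1.02 to -0.42, Sppl2a from -1.07 to -0.67 and Crybg1 from -0.75 to -0.28. The others of the 54 named below include Afg3l2, Ap3b2, Car4, Cd7, Cep43, Col8a1, Dmkn, Ildr1, Lgals7, Lgr5, Mageb4, Myo5b, Omg, Scd1, Slc13a4, Slc27a2, Tm4sf5 and Zbtb8a. By contrast Dnmt1 went from 0.63 to 0.62, Plk1 from 0.62 to 0.59 and Igf2 from -0.68 to -0.66. With the authors' values 64 of the 164 genes were smaller by more than 1.5 times, 57 of them below that level.

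Foxo3 itself is covered by 3 probes, of which 1 was tested. Its log2 intensity on the 3 heterozygous arrays was 7.81, 7.92 and 8.44, and on the 3 null arrays 8.45, 8.18 and 8.65. The groups overlap, and the null mean was not lower (difference 0.37 ± 0.17 SE, limma adjusted p = 0.317). The other 2 probes stayed between 4.23 and 4.74 on the 6 arrays. The position of these probes relative to the deleted part is not given, so they check no label.

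Genes that lie near Foxo3 on its chromosome were looked at because a null allele can carry flanking DNA of the strain it was made in. Among the 50 nearest tested genes on each side, 0 of 100 rose and 1 fell, close to the 0.411% and 0.698% of all tested genes. That gene was Crybg1, the 12th tested gene after Foxo3, with values of 6.06, 5.86 and 5.89 on the heterozygous and 4.92, 5.2 and 5.43 on the null arrays (difference -0.75 ± 0.15 SE, limma adjusted p = 0.0311). Of these 100 genes 19% had an unadjusted p under 0.05, against 16.2% of all tested genes.

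Calls that did not hang on any 1 array were found by leaving out each of the 12 arrays in turn. These fits reuse the same arrays, so they do not show that a call would recur in other ovaries. Of 164 called genes with an established name, 18 stayed called in all 12 fits, 7 higher and 11 lower. The 7 risen genes were Acaa1b, Vil1, Cpne9, Lypd3, Fbxw27, Rimkla and Dnmt1. The 11 fallen genes were Teddm2, Spint4, Aatk, Cldn10, Cldn11, Rab25, Ftdc1, Sulf1, Serpina3n, Casc1 and Ugt1a10. With array background as a covariate, Dnmt1 alone of the 7 risen genes kept its call. Of the 11 fallen genes Cldn11, Ftdc1, Casc1 and Ugt1a10 lost theirs in that fit. At the other end, 77 of the 164 were called in fewer than 6 of the 12 fits. Leaving out NoTg Foxo3+/- replicates 1, 2 or 3 ended the call of 127, 141 and 124 genes, and leaving out NoTg Foxo3-/- replicates 1, 2 or 3 that of 117, 113 and 57. Without Tg Foxo3-/- replicates 1, 2 or 3, 82, 57 and 67 calls ended, and without Tg Foxo3+/- replicates 1, 2 or 3, 0, 70 and 31. Every called gene named below that is not among the 18 thus lost its call in at least 1 of these fits, and Ccl21a alone of the 164 had its log2 difference moved by more than 1.5 times.

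Among the rises that stayed called with any 1 array left out, Acaa1b encodes a peroxisomal 3-ketoacyl-CoA thiolase of fatty acid breakdown. It had values of 6.82, 6.84 and 6.39 in the heterozygote and 7.76, 7.79 and 7.67 in the null (2.08-fold, limma adjusted p = 0.00557). Dnmt1, the maintenance DNA methyltransferase, was a bright and tight signal, at 12.03, 11.98 and 12.05 against 12.69, 12.53 and 12.72 (1.54-fold, adjusted p = 0.00382). Vil1, which encodes the actin-bundling protein villin of microvilli, stood at 9.53, 9.33 and 9.07 against 10.06, 10.39 and 10.09 (1.82-fold, adjusted p = 0.00819). As for every called probe, no null array fell below a heterozygous one in these 3 genes. Lypd3, a cell surface glycoprotein gene, rose 1.72-fold, and Cpne9, of the calcium-dependent membrane-binding copines, 1.81-fold. Rimkla, which encodes a synthetase of the neuropeptide N-acetylaspartylglutamate, rose with both of its called probes, by 0.67 and 0.59 on the log2 scale. Fbxw27 belongs to a cluster of similar F-box genes whose probes may share signal, and its brightest probe differed by only 0.13 (adjusted p = 0.672) while a dimmer one rose by 0.76.

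Among the falls that stayed called with any 1 array left out, Teddm2 dropped furthest. It went from 7.17, 6.91 and 6.85 in the heterozygote to 4.87, 5.02 and 4.94 in the null (difference -2.03 ± 0.19 SE, limma adjusted p = 0.000186). Its signal passed detection on 2 null arrays, so the null values lie close to background. Aatk, a tyrosine kinase gene, had values of 8.35, 8.17 and 7.83 against 6.80, 7.05 and 6.69 (2.41-fold lower, adjusted p = 0.00356). Serpina3n, a serine protease inhibitor of the acute phase response, went from 8.98, 9.0 and 8.92 to 8.09, 7.93 and 8.10 (1.9-fold lower, adjusted p = 0.00228). Each of these genes separated the groups by more than the whole range within either group. Spint4, of the Kunitz-type protease inhibitors, went undetected throughout the null and was lower by at least 2.02-fold. A bound of this kind sets the heterozygous mean against the higher of the null value and the dimmest detected signal of each array. It holds on the background-corrected scale alone, since without the correction the fitted fold of Spint4 was 1.55. Omg, a myelin glycoprotein gene, and Car4, a carbonic anhydrase gene, also went undetected in the null, with bounds on the corrected scale of at least 1.65-fold and at least 1.61-fold. Without the correction both were 1.27-fold lower.

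**Figure D2:**
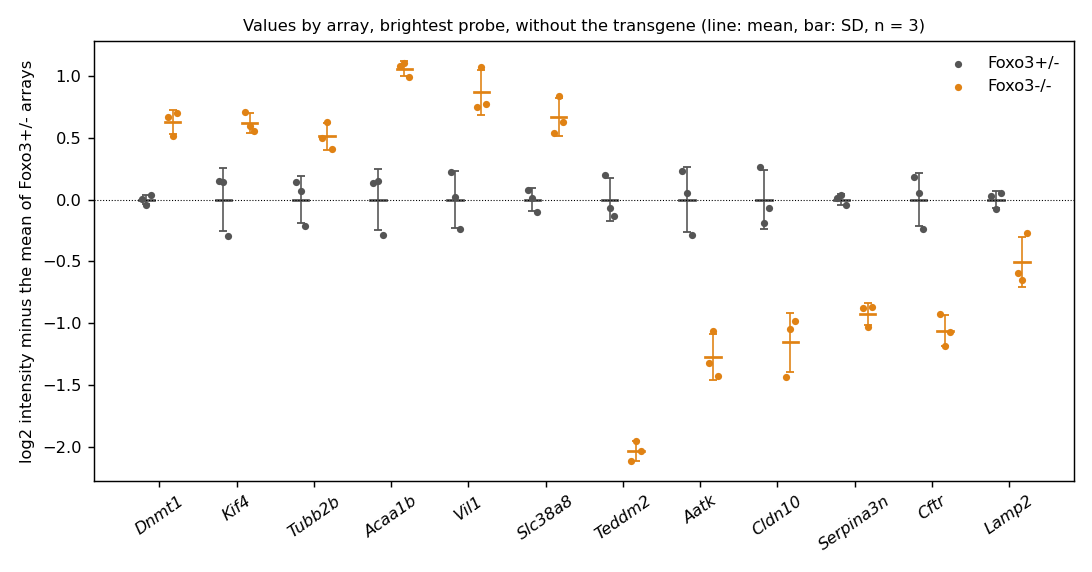
Log2 intensity of 12 genes on each array without the transgene, drawn relative to the mean of the 3 Foxo3+/- arrays (grey points, Foxo3+/-, and orange points, Foxo3-/-, with a line at the mean and a bar of 1 SD, n = 3). The 6 genes on the left lie higher and the 6 on the right lower in the null without overlap, and the mean differences run from -2.03 for Teddm2 to 1.06 for Acaa1b. Lamp2 is drawn by its brightest probe, which was not called.

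Genes of cell division and DNA synthesis lay higher in the null almost throughout, with few single calls. The gene lists used here were chosen with earlier results of these data known. Of 21 tested genes of mitosis 1 rose, 0 fell and all 21 lay above 0, with a median difference of 0.31 against -0.01 over all tested genes. Of these 21, 12 had an unadjusted p under 0.05, against 16.2% of all tested genes. The called gene was Plk1, a kinase that drives entry into and passage through mitosis, at 10.54, 10.51 and 10.23 in the heterozygote and 11.10, 11.12 and 10.93 in the null (1.54-fold, limma adjusted p = 0.0370). The call of Plk1 was lost in 9 of the 12 fits that left out 1 array. Prc1, an organiser of the central spindle, differed by 0.39 (adjusted p = 0.0739) and Kif11, a spindle motor, by 0.48 (adjusted p = 0.122) without passing. The level of the list, taken per array as the median over its genes of the deviation from each gene's mean, was -0.19 to -0.08 in the heterozygous and 0.13 to 0.22 in the null arrays. Relative to all genes the list median was 0.32 and 0.30 under the other scalings.

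The DNA replication list behaved alike. Of its 23 tested genes 1 rose, 0 fell and 20 lay above 0, with a median of 0.29 and 12 unadjusted p under 0.05. The called gene was Uhrf1, a reader of hemimethylated DNA that brings DNMT1 to newly copied strands (1.30-fold, limma adjusted p = 0.0413, and 0.0508 with the replicate number as a block). The call of Uhrf1 was lost in 10 of the 12 fits that left out 1 array. Ccne1, which encodes the G1/S cyclin E1, differed by 0.65 (adjusted p = 0.0595) and Cdt1, a loader of the replicative helicase, by 0.59 (adjusted p = 0.0986, and 0.0410 with the block). Of the helicase subunit genes, Mcm3, Mcm5 and Mcm7 differed by 0.56, 0.38 and 0.39 without passing, while Mcm6 differed by 0.11. The replication clamp Pcna lay below 0, at -0.19 (adjusted p = 0.760). Relative to all genes the list median was 0.33 and 0.31 under the other scalings.

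Several called genes outside these lists act in the same processes. Kif4, a chromokinesin that condenses chromosomes and builds the central spindle, rose with 3 of its probes, by 0.62, 0.81 and 0.87. On its brightest probe it stood at 10.30, 10.29 and 9.86 in the heterozygote and 10.86, 10.74 and 10.70 in the null (limma adjusted p = 0.0240). It was the single call, a rise, among 27 tested kinesin genes, whose median was 0.16 with 17 above 0 (0.18 and 0.10 relative to all genes). Mybl2, a transcription factor of cell cycle genes, rose 1.5-fold. Clspn, an adaptor of the replication checkpoint, Gins2, a subunit of the replicative helicase, and Ncaph, a condensin subunit, rose by 0.59, 0.65 and 0.62, each on a dimmer probe than the gene's brightest. Those brightest probes differed by 0.48, 0.21 and 0.40 without passing. Among called genes for enzymes of nucleotide supply, the deaminase gene Dctd rose 1.44-fold, the CTP synthase gene Ctps 1.37-fold and Shmt1, of folate metabolism, 1.37-fold. These were picked from the called genes, and tested genes of this kind were not counted. The adenylate kinase gene Ak3, given below, fell. Tubb2b, a beta-tubulin gene, rose from 12.97, 12.89 and 12.61 to 13.32, 13.45 and 13.23 (adjusted p = 0.0285) and was 1 of 12 tested tubulin genes to do so. Of 8 DNA methylation genes Dnmt1 and Uhrf1 rose.

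The general machinery of the cell gave no calls. None of 52 tested genes for cytosolic ribosomal proteins was called, none of 73 for mitochondrial ribosomal proteins, none of 83 for nuclear subunits of the respiratory chain and ATP synthase, and none of 43 for proteasome subunits. Of all tested genes 1.11% were called, so 0 calls in lists of these sizes is close to the general share. By limma's unadjusted p under 0.05 the counts were 3, 7, 8 and 8 genes, beside 16.2% of all tested genes. Their medians were -0.001, 0.01, 0.04 and 0.01, and under median scaling all 4 were positive, at 0.08 to 0.20, beside a median of 0.13 for all genes. Genes of glycolysis and the citric acid cycle (21 tested), cholesterol synthesis (15), endoplasmic reticulum stress (14), apoptosis (17) and the immediate early response (13) were not called either. By the unadjusted p 2, 4, 4, 1 and 0 of them passed 0.05, and the medians lay between -0.06 and 0.09, with signs that turned under median scaling for glycolysis, cholesterol synthesis and apoptosis. Of 18 genes of the KIT and PI3K pathway, which controls FOXO3 itself, 0 were called, 1 had an unadjusted p under 0.05 and the median was 0.03.

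Transcripts encoded by the mitochondrial genome lay mostly lower in the null. This group was formed after the values were seen. Of 7 tested mitochondrial transcripts 2 fell. ATP6, a subunit of the ATP synthase, went from 12.77, 12.76 and 12.96 to 12.26, 11.96 and 12.35 (difference -0.64 ± 0.11 SE, limma adjusted p = 0.0160). ND4, a subunit of complex I, fell by 0.43 (adjusted p = 0.0360). ND1 differed by -0.50 (adjusted p = 0.0509), COX2 by -0.81 (adjusted p = 0.158) and CYTB by -0.12, while ND5 differed by 0.40 (adjusted p = 0.718). The median of the 7 was -0.43 against 0.04 for the nuclear subunits, and it stayed below 0 under each scaling. Mitochondrial proteins encoded in the nucleus gave single calls in both directions. The matrix adenylate kinase Ak3 fell 1.54-fold, and the protease subunits Clpx and Afg3l2 fell by 0.48 and rose by 0.72, each on a probe dimmer than the gene's brightest (Clpx with adjusted p = 0.0486, and 0.0642 with the replicate block).

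**Figure D3:**
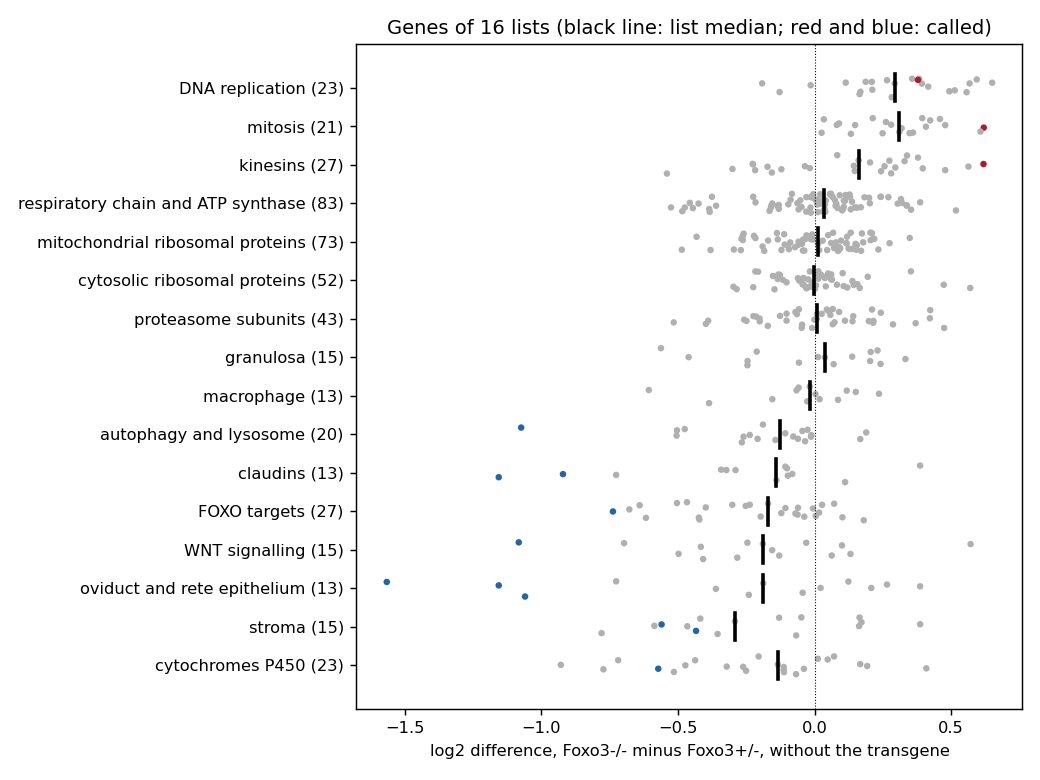
Each point is the log2 difference of 1 tested gene, Foxo3-/- minus Foxo3+/-, for 16 gene lists with the number of tested genes in brackets, a black line at the list median, and red or blue where the gene was called higher or lower. DNA replication and mitosis have medians of 0.29 and 0.31, the ribosomal, respiratory and proteasome lists lie at 0 to 0.04, and the stroma list lies lowest at -0.29.

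Genes with known roles in epithelia were called in both directions. Of 13 tested claudin genes, which encode the strands of tight junctions, 2 fell, 0 rose and 11 lay below 0 (median -0.14, and -0.24 and -0.11 relative to all genes). Cldn10 went from 8.21, 7.75 and 7.87 to 6.51, 6.89 and 6.96 (difference -1.16 ± 0.16 SE, limma adjusted p = 0.00356). Cldn11 went from 9.92, 9.46 and 10.09 to 8.80, 8.95 and 8.96 (1.89-fold lower, adjusted p = 0.00596). As for every called probe, the groups did not overlap for either gene. Cftr, the chloride channel of secretory epithelia, had values of 7.79, 7.66 and 7.37 against 6.68, 6.42 and 6.53 (2.08-fold lower, adjusted p = 0.0158). Rab25, a small GTPase of epithelial recycling endosomes, fell with both of its tested probes, by 0.98 and 0.77. Tspan8, a tetraspanin gene, fell 1.70-fold, Dmkn, of secreted epithelial proteins, 1.80-fold, and Tm4sf5 2.0-fold. Ildr1, which encodes a protein of tricellular junctions, fell by 0.70 on 1 dim probe, its other tested probes differed by 0.02 and -0.09, and the call was lost in 19 of 27 settings. In the other direction, Vil1 rose as given above, Pard3, a polarity protein gene of tight junctions, rose by 0.75 on a dimmer probe with -0.04 on its brightest (adjusted p = 0.942), and Myo5b, a motor that carries recycling endosomes, rose by 0.65 on a dimmer probe (adjusted p = 0.0493, and 0.0570 with the replicate block) with 0.56 on its brightest (adjusted p = 0.0720). Lgals7, a galectin of stratified epithelia, fell by 0.93 on a dimmer probe, and its brightest probe differed by -0.77 (adjusted p = 0.0845). Among transporters, 1 of 217 tested solute carrier genes rose and 2 fell (1.38%, against 1.11% of all tested genes). Slc38a8, a glutamine transporter, rose from 8.94, 8.88 and 8.76 to 9.40, 9.70 and 9.49 (1.59-fold). Slc27a2, a fatty acid transporter, fell 2.12-fold. Slc13a4, a sulfate transporter detected on 1 of 3 null arrays, was called lower by 1.92-fold, and without background correction it was 1.25-fold lower and not called.

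Oviduct and rete epithelium are tissues that can remain attached to a dissected ovary. Of 13 tested genes of a list for them, 3 fell (Spint4, Cldn10 and Cftr) and 0 rose, against 0.698% and 0.411% of all tested genes. The list median was -0.19 (-0.14 and -0.12 relative to all genes), with 8 genes below 0 and 5 above. Of 5 genes with an unadjusted p under 0.05, 1 was higher. The list's level per array was 0.04 to 0.24 in the heterozygous and -0.28 to -0.06 in the null arrays. The defining markers Pax8, Pax2 and Epcam had no tested probe. The part of attached tissue in these falls was not tested.

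Single genes of lipid and steroid metabolism were called in both directions. Hsd17b2, which inactivates estradiol and testosterone, went from 6.59, 6.35 and 5.88 to 5.29, 5.11 and 5.42 (2.0-fold lower, limma adjusted p = 0.0240). Cyp27a1, the mitochondrial sterol 27-hydroxylase, fell 1.49-fold and was the single call among 23 tested cytochrome P450 genes, of which 17 lay below 0. Lpl, the lipoprotein lipase, was bright and fell from 12.47, 12.51 and 12.67 to 11.77, 11.88 and 12.13 (adjusted p = 0.0227). Scd1, a fatty acid desaturase, fell 1.63-fold (adjusted p = 0.0455, and 0.0547 with the replicate block). Lpl and Scd1 were the 2 calls among 7 tested adipocyte genes, while Adipoq and Fabp4, which define that cell type, had no tested probe. Ugt1a10, of the glucuronosyltransferases, fell with 2 probes, by 0.83 and 0.87, and since the genes of this cluster share exons the transcript is uncertain. Of 21 genes of peroxisomes and fatty acid oxidation, Acaa1b rose and Slc27a2 fell, and the list median was -0.05 and turned positive with median scaling. Relative to all genes that median was -0.04 and -0.03 under the other scalings. None of 11 tested theca and steroidogenic genes was called, with 4 at an unadjusted p under 0.05.

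Lysosomal genes lay mostly below 0 with few calls. Of 20 tested genes of autophagy and the lysosome, a group that FOXO factors are known to regulate in other tissues, 1 fell, 0 rose and 18 lay below 0. The median was -0.13, and it turned to 0.02 with median scaling, which is -0.11 relative to all genes. The list's level per array overlapped between groups, at 0.0086 to 0.12 in the heterozygous and -0.11 to 0.0098 in the null arrays. Sppl2a, an intramembrane protease of lysosomes, went from 7.67, 7.74 and 7.47 to 6.56, 6.07 and 7.02 (2.11-fold lower, limma adjusted p = 0.0374). Lamp2, a major protein of the lysosomal membrane, fell by 0.59 on 1 probe (11.91, 11.88 and 11.91 against 11.28, 11.15 and 11.52, adjusted p = 0.0291). Its brightest probe differed by -0.51 (adjusted p = 0.0541). Ctsf, a lysosomal cysteine protease outside the list, fell 1.52-fold. Abcb9, which carries peptides into lysosomes, rose with 2 probes, by 0.66 and 0.86 (adjusted p = 0.0456 and 0.0142, the former 0.0567 with the replicate block).

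Known targets of FOXO factors leaned lower with a single call. Of 27 tested targets 1 fell, 0 rose, 21 lay below 0 and 8 had an unadjusted p under 0.05, all lower. Cdkn1a, which encodes the cell cycle inhibitor p21, had values of 7.90, 7.49 and 7.65 in the heterozygote and 7.0, 6.75 and 7.08 in the null, without overlap (limma adjusted p = 0.0365). Gabarapl1, an autophagosome protein gene, differed by -0.50 (adjusted p = 0.0739), the cyclin gene Ccng2 by -0.62 (adjusted p = 0.117), Cited2 by -0.68 (adjusted p = 0.168) and Cat, the catalase, by -0.47 (adjusted p = 0.171). Other textbook targets hardly differed, with Bcl2l11 at -0.01, Irs2 at 0.004 and Gadd45a at 0.03. The level of the list overlapped between groups, at -0.004 to 0.19 in the heterozygous and -0.21 to -0.0002 in the null arrays. Its median was -0.17, and relative to all genes it was -0.16 with median scaling and -0.09 with the authors' values.

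Signalling genes changed one by one. Igf2, a fetal growth factor, went from 11.59, 11.54 and 11.41 to 10.96, 10.64 and 10.90 (1.6-fold lower, limma adjusted p = 0.0104) and was the single call among 15 genes of the insulin-like growth factor system. Smo, the transducer of Hedgehog signals, fell 1.71-fold, from 9.86, 9.70 and 9.74 to 9.13, 8.81 and 9.04. Tnfrsf19, a receptor of the tumour necrosis factor family, fell 1.6-fold, and Angpt2, a ligand of the vascular receptor TIE2, 1.77-fold. Of 15 WNT genes Lgr5, a receptor for R-spondins, fell, 11 lay below 0 and the median was -0.19 (-0.17 and -0.13 relative to all genes). Wls, the carrier needed to secrete WNT proteins, is not on that list. Its brightest probe differed by -0.16 (adjusted p = 0.675), while a probe almost as bright fell by 0.65. Dtx1 and Dtx3l, of the Deltex ubiquitin ligases, fell 2.02-fold and 1.56-fold, whereas 0 of 10 tested Notch pathway genes were called, with 2 at an unadjusted p under 0.05. Of 23 genes of TGF-beta, activin and BMP signalling 0 were called, 4 had an unadjusted p under 0.05 and 17 lay below 0. The median was -0.12 and turned positive with median scaling, but relative to all genes it was -0.09 and -0.07 under the other scalings. The receptor gene Bmpr2 stood at -0.54 (adjusted p = 0.0552, and 0.0424 with the replicate block). Plcg2, a phospholipase of receptor signalling, and Tiam1, an activator of the GTPase RAC, rose 1.68-fold and 1.39-fold.

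Matrix and stromal genes fell where they were called. Of 15 tested stroma genes 2 fell, against 0.698% of all tested genes, and 11 lay below 0, with a median of -0.29. Relative to all genes that median was -0.24 and -0.20 under the other scalings and -0.13 with array background as a covariate. Ogn, which encodes the proteoglycan osteoglycin, went from 12.79, 12.94 and 13.18 to 12.33, 12.31 and 12.59 (1.47-fold lower, limma adjusted p = 0.0318). Dcn, the related decorin, was bright, at 13.72, 13.61 and 13.90 against 13.40, 13.17 and 13.37 (adjusted p = 0.0486). Its call was lost in 11 of the 12 fits that left out 1 array, and that of Ogn in 5. Col8a1 fell 1.88-fold and was the single call among 34 tested collagen genes, whose median of -0.12 turned to 0.02 with median scaling. Relative to all genes the collagen median was -0.12 and -0.07 under the other scalings. Sulf1, which trims sulfates from heparan sulfate, went from 8.89, 8.81 and 8.60 to 7.80, 7.94 and 7.75 on 1 probe (adjusted p = 0.00447), and its brightest probe differed by -0.57 (adjusted p = 0.126). Sdc4, a heparan sulfate carrier at the cell surface, fell 1.74-fold. None of 19 matrix glycoprotein and proteoglycan genes of a separate list was called, with 2 at an unadjusted p under 0.05 and a median of 0.06.

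Immune and interferon genes gave isolated calls. Gbp2, an interferon-induced GTPase, went from between 9.99 and 10.16 to 9.10, 9.69 and 9.13 (1.68-fold lower, limma adjusted p = 0.0360) and was the single call among 13 interferon response genes, whose median was -0.06. Samd9l fell by 0.47 (adjusted p = 0.0499, and 0.0652 with the replicate block). Ccl21a, a chemokine of lymphatic endothelium with close copies, stood at 11.60, 11.44 and 11.50 against 10.69, 8.69 and 10.66. NoTg Foxo3-/- replicate 2 is far below the other arrays, and the difference was -1.5 with it and -0.84 without it. Cd7, a T cell and natural killer cell antigen, rose 1.79-fold and was the single call among 4 tested lymphocyte genes, while Cd4, Cd8a and Lck, among others of the list, had no tested probe.

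Other marker lists gave few calls. Of 15 granulosa genes 0 were called, 2 had an unadjusted p under 0.05 and the median was 0.04, with a level of -0.02 to 0.07 in the heterozygous and -0.17 to 0.13 in the null arrays. Of 13 macrophage genes 0 were called and 1 had an unadjusted p under 0.05, of 12 endothelial genes 0 and 2, and of 11 smooth muscle genes 0 and 1. The medians were -0.02, -0.004 and -0.24. Those of the macrophage and endothelial lists turned positive with median scaling, which moved the median of all genes to 0.13. Of 8 lymphatic vessel genes Ccl21a fell. The erythrocyte list had 4 tested genes, 0 calls, 0 unadjusted p under 0.05 and a median of -0.39. The oocyte list (25 tested genes, 3 rose, median 0.23, and 0.22 and 0.25 relative to all genes) and the surface epithelium list (15 tested genes, 1 fell, median -0.29, and -0.35 and -0.22 relative to all genes) moved in the same comparison, at levels of -0.17 to -0.08 against 0.07 to 0.17 and of 0.08 to 0.28 against -0.33 to -0.15. The gene that fell in the surface epithelium list is Lgr5, the same gene as in the WNT list. The part of the oocyte and surface epithelium lists in the other changes was not tested.

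Further called genes have known roles in the germ line or early embryo. Pou5f1, a transcription factor of germ and pluripotent cells, rose with 2 probes, by 0.59 and 0.70. Tex19.1, a germ cell factor that restrains transposons, stood at 10.12, 9.94 and 9.68 against 10.60, 10.61 and 10.59 (limma adjusted p = 0.0117). Kpna7, a nuclear import receptor of oocytes and early embryos, rose by 0.97 on a dimmer probe (8.16, 8.65 and 8.08 against 9.11, 9.34 and 9.34), and its brightest probe differed by 0.40 (adjusted p = 0.143). Cd9, a tetraspanin that eggs need for fusion with sperm, rose 1.41-fold (adjusted p = 0.0493, and 0.0609 with the replicate block). Foxr1, another forkhead gene, rose 1.49-fold (adjusted p = 0.0411, and 0.0546 with the block). Of 9 meiosis genes and 10 genes of the piRNA pathway, 0 were called, with 3 and 2 at an unadjusted p under 0.05. Falls were found too. Marf1, which controls transposons and RNA stability in oocytes, fell 1.65-fold, from 10.43, 10.29 and 10.57 to 9.52, 9.81 and 9.80. The genes given here are not all of this kind. Mageb4, Cphx1 and Ddx25 also fell, at -1.25, -0.68 and -0.68, while Dppa5a and Tcl1 rose by 0.61 and 0.51, among others. For Mageb4, Dppa5a and Tcl1 the called probe was dimmer than the gene's brightest. Those brightest probes differed by -1.16, 0.49 and 0.50 without passing.

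Promoters of called genes were searched for the core forkhead motif GTAAACA, for the E-box CACGTG, for TAATTG as a homeobox core and for TATAAA, on both strands, from 250 bases before to 50 after the start site (RefSeq, GRCm38.p6). Of the 169 genes with a called probe, 136 had such a window. The forkhead letters were in 3 of 82 windows of higher genes (3.66%), in 1 of 111 windows of lower genes (0.901%), in 2.56% of the windows of tested genes and in 3.65% of all windows. The E-box was in 9.76%, 9.01%, 9.57% and 7.15%, the homeobox core in 6.1%, 3.6%, 5.16% and 8%, and TATAAA in 7.32%, 9.01%, 7.97% and 13.6% of the same sets. The E-box letters are their own reverse complement, so each match counts once, and each motif was counted whether or not it overlapped a match of another. All 4 windows of called genes with the forkhead letters are shown because they are the places where the factor's known core is read in these promoters. They are Zp3 (chr5:135979855-135979899, plus strand), Mtmr14 (chr6:113237792-113237842, plus strand), Cpsf4l (chr11:113710123-113710189, minus strand) and Tspan8 (chr10:115817236-115817283, plus strand), each 5′ to 3′ on the gene's strand with the motif in capitals. The stretches hold up to 30 bases on each side and are trimmed at the end of the window and at the start site.
Zp3: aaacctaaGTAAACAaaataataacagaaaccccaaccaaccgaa
Mtmr14: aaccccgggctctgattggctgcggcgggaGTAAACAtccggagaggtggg
Cpsf4l: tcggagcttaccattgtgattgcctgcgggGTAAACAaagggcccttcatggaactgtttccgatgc
Tspan8: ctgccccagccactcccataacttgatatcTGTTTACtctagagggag
The motif's first base lies at -242, -21, -142 and -18 from the start site, and Tspan8 holds the reverse complement. Zp3, a zona pellucida glycoprotein gene, rose by 0.55, and Tspan8 fell by 0.77. Mtmr14, a phosphoinositide phosphatase gene, and Cpsf4l rose by 0.85 and 0.99 on a dimmer probe, and their brightest probes differed by 0.38 (limma adjusted p = 0.0780) and 0.27 (adjusted p = 0.289). A match describes the letters and does not show that a factor binds there.

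Probes of one gene mostly moved the same way once one of them was called. Over all genes, 4736 had at least 2 tested probes, 11705 probes in all, and in 2624 of them (55.4%) every tested probe had one sign. Of 79 genes with a called probe and at least one other tested probe, 65 had every probe on one side (82.3%, Wilson 95% interval 72.4 to 89.1%). Probes of a gene share the same arrays, so the interval covers counting error only. Of the 140 other probes of these genes, 124 had the sign of the called probe and 16 the opposite sign. Of the 124, 81 had an unadjusted p under 0.05, and of the 16, 0 did. Of the 140, 13 were called themselves, in the same direction as the first.

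The second probes reported smaller changes. The median ratio of the other probe's log2 difference to that of the probe with the smallest p was 0.58 (quartiles 0.27 and 0.84). The called probe was chosen for its small p, so a ratio under 1 is partly fixed by the choice. Among 70 other probes that were as bright within 1 log2 unit, or brighter, the median ratio was 0.66 and 5 had the opposite sign. Among 70 that were dimmer by more than 1 log2 unit it was 0.51 and 11 had the opposite sign. Without regard to calls, the differences of a gene's 2 brightest tested probes correlated across genes at r = 0.472, and in 3 equal bins by the dimmer probe's brightness at 0.283, 0.518 and 0.629. These correlations describe probes on shared arrays, and genes are not independent replicates.

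The 12 genes with at least 2 called probes were Abcb9, Izumo4, Kif4, Mef2b, Pou5f1 and Rimkla among the rises and Ap3b2, Bpifb4, Casc1, Prxl2a, Rab25 and Ugt1a10 among the falls. Izumo4, of a family named after a sperm-egg fusion protein, rose by 0.68 and 0.80. Casc1 had nearly equal falls of 0.93 and 0.94, Prxl2a, a redox protein gene, of 0.74 and 0.72, and Bpifb4, of the lipid-binding BPI fold family, of 1.0 and 0.91. The vesicle coat gene Ap3b2 fell by 1.12 and 0.89, yet another, dim probe at a mean log2 intensity of 4.67 differed by 0.01. Mef2b, a MADS-box transcription factor gene, had 2 called rises of 0.61 and 0.63 beside a difference of -0.17 (limma adjusted p = 0.515) on its brightest probe. Lcmt1 and Nme7 fell by 0.57 and 0.56 on 1 probe, and each had another at 0.30 and 0.27 (limma adjusted p = 0.579 and 0.481). For Smo, Dmkn, Lgals7 and Klhl24 the probes of opposite sign were dimmer by more than 1 log2 unit and differed by 0.02 to 0.17. Genes whose call rested on one dim probe include Cep43, with a rise of 0.84 (adjusted p = 0.0493, and 0.0610 with the replicate block) against 0.07 on its brightest probe, and Zbtb8a, with 0.98 against 0.09.

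**Figure D4:**
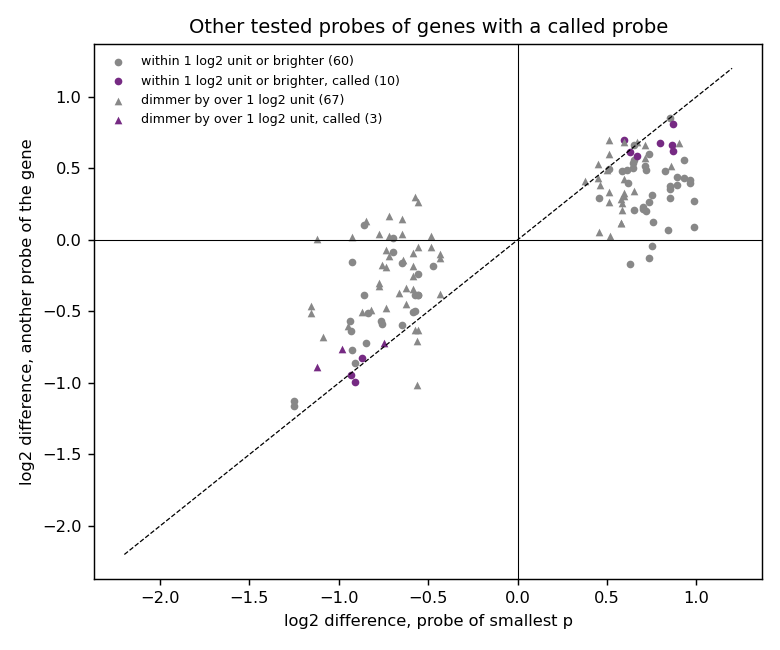
For 140 other tested probes of genes with a called probe, the log2 difference of the gene's probe with the smallest p is on the x axis and that of the other probe on the y axis, with circles for probes as bright within 1 log2 unit or brighter, triangles for dimmer ones, purple for the 13 that were called, and a dashed line of equality. Most points lie in the quadrants of equal sign and nearer to 0 than the line, and the 16 of opposite sign lie close to 0.

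The same genotypes were also compared on the 6 arrays with the transgene, which share no array with the comparison above. There 336 probes were higher (1.49%) and 155 lower (0.689%) in the null. Of the 205 probes called without the transgene, 202 had the same sign with it, all 115 lower ones and 87 of the 90 higher ones. Called in the same direction with it were 114 of the 205, 66 of the higher and 48 of the lower ones. The share of all tested probes with the same sign in both comparisons was not computed. All 12 arrays were normalized together and share 1 estimate of the spread. The 3 exceptions were the single called probes of Afg3l2, Cep43 and Plekhg2, at -0.02, -0.07 and -0.06 with the transgene. The median difference of the 90 higher probes was 0.67 without and 0.68 with the transgene, and that of the 115 lower probes -0.80 and -0.51. The probes were chosen on the first value of each pair, which favours a smaller second value. Array background was higher in the null on the arrays with the transgene too, at 68.5 to 74.2 against 65.4 to 67, and its part in this was not tested. The list medians with the transgene were 0.29 for mitosis, 0.17 for DNA replication, -0.15 for FOXO targets and -0.25 for the mitochondrial transcripts.

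No probe passed the test of the difference between the comparisons. The interaction of genotype and transgene gave 0 calls of 22511 (0%) with limma, and 952 probes (4.23%) had an unadjusted p under 0.05. It stayed at 0 in every alternative that fitted all groups. The values of some called genes nevertheless lay far apart side by side. Igf2 was lower by -0.68 without and by -0.07 with the transgene (interaction, limma adjusted p = 0.994), Gng13, a G protein gamma subunit gene, by -1.32 and -0.25, Lgr5 by -1.08 and -0.28 and Col8a1 by -0.91 and -0.17, each with the same interaction adjusted p. For Teddm2, Aatk, Serpina3n and Cldn10 the values were close, at -2.03 and -1.72, -1.27 and -1.51, -0.93 and -0.93, and -1.16 and -1.08. Dnmt1, with 0.63 and 0.67, and Acaa1b, with 1.06 and 1.19, were close too.

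**Figure D5:**
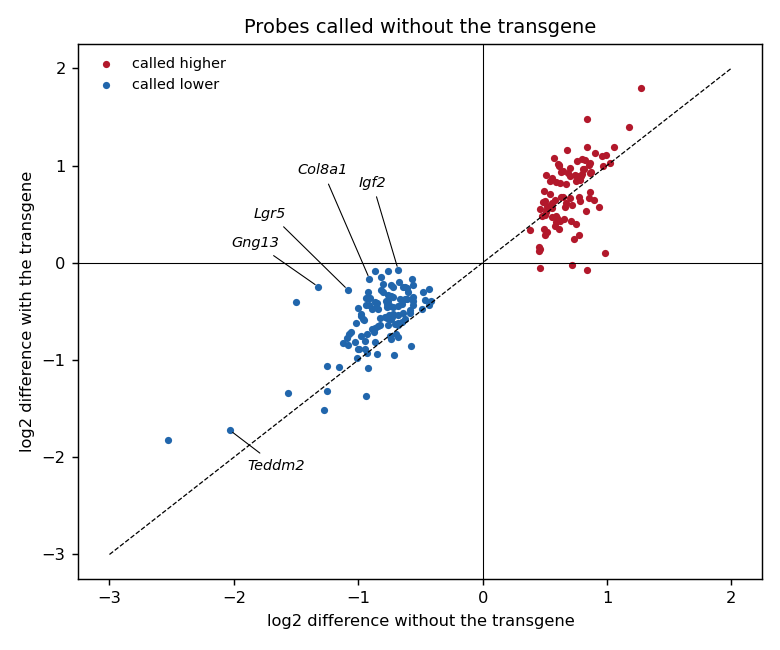
Each point is 1 of the 205 probes called without the transgene, with the log2 difference, Foxo3-/- minus Foxo3+/-, on the arrays without the transgene on the x axis and with it on the y axis, red for called higher, blue for called lower and a dashed line of equality. All but 3 points keep their sign, and Igf2, Col8a1, Lgr5 and Gng13 lie far above the line while Teddm2 lies near it.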

How the data were processed

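The deposited table holds raw bead intensity on a linear scale per probe and array and, per the file headers, a detection p-value beside each. A second table of intensity normalized by the authors was used only as an alternative, on the log2 scale; the sources used here do not give its method. RNA was amplified to biotin-labelled cRNA, per the labels' protocols. Raw values were background-corrected with limma 3.58.1 (R 4.3.3; nec, normexp on the detection p-values, offset 16), quantile normalized and taken to log2. The model had a mean for each of the 4 groups over all 12 arrays (lmFit, eBayes with an intensity trend, Benjamini-Hochberg).

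Of 45281 probes 34885 have 1 gene symbol in the platform annotation, 18 several and 10378 none. Of the list symbols 57 had no match here and 7 were matched by an older name. Members, lists, tests and the rule for named genes were chosen with earlier results of these data known. The rule takes Foxo3, genes with 2 called probes, the 30 largest rises and falls, called list members with up to 3 others per list, probes of opposite sign and neighbours of Foxo3. The number of arrays limits precision.

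Same-numbered arrays without the transgene deviated together to a small degree (correlation of deviations from the group means 0.175, 0.195 and 0.172). The replicate number was therefore tried as a block in an alternative fit. The main fit and its p-values have no such block. With the block 245 probes were called, 187 of them among the 205 of the main fit. With the transgene the correlations were 0.031, 0.203 and -0.038. Chip and hybridisation day were not known, so neither could be tested as a batch. All 12 array columns matched a sample.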

Additional observations from a re-analysis of the deposited data

How the results depend on the processing

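The main fit called 205 probes, 90 higher and 115 lower, and in 82.3% of genes with a called probe and another tested one every probe had one sign. Median scaling gave 62 calls (52 higher, 10 lower) with 100% agreement, the authors' values 169 higher and 19 lower with 94.4%, and array background as a covariate 16 calls (6 and 10) with 100%. No filter on detection gave 90 calls (38 and 52), the 6 compared arrays alone 47 (17 and 30), array weights 746 (358 and 388), and no intensity trend 143 (55 and 88). Without background correction 198 were called (83 and 115), with smaller differences for dim genes as given in the report. Agreement was 91.0% with the stricter filter and 90% with detection on all 3 arrays of 1 compared group. It was 85.7% without background correction, 81.6% with no intensity trend, 81.25% on the 6 compared arrays alone, 79.1% with array weights and 74.4% with no filter. The values of 100% rest on 24 genes for median scaling and on 4 for the background covariate. Leaving out each array in turn gave 35 to 342 calls, 17 to 159 higher, 18 to 183 lower and 70 to 100% agreement. Median scaling and the authors' values moved the median difference of all genes to 0.13 and 0.08, and the cause of these moves was not tested.

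Uncalled marker genes that turned sign were C1qb and Cd3g. C1qb turned to 0.0028 with median scaling and ranged from -0.36 to 0.0057 with 1 array left out, and Cd3g turned to -0.19 with array weights and ranged from -0.14 to 0.39. No called gene changed sign in any of the 27 settings, and Aatk, Cldn10, Dnmt1, Spint4 and Teddm2 stayed called in all of them, whereas 67 of the 164 lost their call in at least 0.5 of them.

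With the replicate number as a block 245 probes were called, 98 higher and 147 lower, and the calls it changed among genes named in the report are given there. A fit with this block on the 6 compared arrays alone, chosen after seeing the data, called 270, 106 higher and 164 lower. Signal limits the dim probes, whose median standard error was 0.18 in the dimmest bin against 0.13 in the brightest.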

Other observations

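Among the called probes 23 have no gene symbol in the annotation used here, 11 higher and 12 lower. The probe ILMN_1231083 rose from a mean log2 intensity of 9.51 to 10.78 in the null (difference 1.27 ± 0.18 SE, limma adjusted p = 0.00522), and with the transgene its difference was 1.80. The probe ILMN_1232265 rose by 1.18 (adjusted p = 0.000886) and by 1.40 with the transgene. Both differences are larger than that of any named gene called higher, whose largest was 1.06 (Acaa1b). Of the bright unnamed probes, ILMN_1230073 fell from 14.45 to 13.68 and ILMN_2638923 from 13.21 to 12.37, with adjusted p of 0.0247 and 0.0484.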
